A study of Mus musculus with 6 samples.

Results

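The spliceosome and splicing regulator genes are the 54 genes of the array annotation whose symbol starts with Srsf, Sfrs, Hnrnp, Snrp, Sf3a, Sf3b or Prpf, of 12393 genes with a singly annotated probe set. These genes have 138 such probe sets, and each gene was read from the one that was brightest on average over the 6 arrays. By role the 54 genes comprised 9 SR proteins, 18 hnRNP proteins, 8 Sm and other snRNP proteins, 9 subunits of SF3A and SF3B and 10 PRPF factors. A further 14 probe sets with several symbols, among them those of Hnrnpa3, Snrpa, Snrpd1 and Snrpd2, were left out. The prefixes do not take every spliceosome gene, Snrnp70 for one, and such genes are given separately further on.

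The 6 arrays were hybridised with RNA of mouse Ba/F3 cells, a pro-B line that depends on interleukin 3 (IL3) unless an active kinase replaces it. The groups were ETV6-PDGFRB cells with imatinib and untreated, FIP1L1-PDGFRA cells with imatinib and untreated, and empty vector cells kept in IL3 with imatinib and untreated, with 1 array each. Imatinib (Glivec), which blocks the kinase activity of PDGF receptors, was given at 100 nM for 4 h, and both fusion genes and the empty insert were carried by the retroviral vector pMSCV. The sample titles call the fusion lines selected, without saying how, and name IL3 for the vector cells only. Selection and the IL3 supply as labelled thus differ along with the fusion gene and cannot be told apart from it. The deposited signals are intensities on a linear scale, and a signal floor of 20.1 was used, which is about the 50th percentile of each array. Of 15 marker genes of pro-B and Ba/F3 cells, 6 or 7 exceeded the floor on each array, while Vpreb1, Vpreb3, Ebf1, Pax5, Rag1, Rag2, Blnk and Kit were below it on every array. Igll1 exceeded the floor in IL3 vector cells only. Of 6 myeloid markers, 2 exceeded the floor on every array, and Lyz2, Itgam, Mpo and Elane were below it throughout. The summed signal of the 6 was 114 and 116 in treated and untreated ETV6-PDGFRB cells, 226 and 324 in treated and untreated FIP1L1-PDGFRA cells and 357 and 345 in treated and untreated IL3 vector cells, and its part in the results was not tested. The summed signal of 7 fibroblast markers was 336 and 486 in treated and untreated ETV6-PDGFRB cells. It lay between 61.6 and 91.8 on the other arrays. Of 5 T and NK cell markers, 1 exceeded the floor, in ETV6-PDGFRB cells only. The part of these line differences in the results was not tested either.

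Introns are removed from transcripts by the spliceosome, which assembles anew on each intron from small nuclear ribonucleoproteins (snRNPs) and many further proteins. Sm proteins form the ring around the RNA of the snRNPs, SF3A and SF3B belong to the U2 snRNP that binds the branch site, and several PRPF factors sit in the tri-snRNP of U4, U6 and U5. SR proteins and hnRNP proteins bind the transcript itself, often with opposite effects on whether an exon is used.

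The promoters of the 4 genes that fell most with imatinib are shown first, since they stand for the response described next. The sequences cover the 250 bases before the gene's start and come from RefSeq, assembly GRCm38.p6, written 5′ to 3′ on the gene's strand. Capitals mark matches on either strand to the CCAAT box (CCAAT), the E-box (CACGTG) and the ETS core (CGGAAG). The Prpf31 promoter lies at chr7:3629735-3629984 on the plus strand, that of Prpf38b at chr3:108911730-108911979 on the minus strand, that of Srsf6 at chr2:162931258-162931507 on the plus strand and that of Srsf5 at chr12:80945249-80945498 on the plus strand.
Prpf31: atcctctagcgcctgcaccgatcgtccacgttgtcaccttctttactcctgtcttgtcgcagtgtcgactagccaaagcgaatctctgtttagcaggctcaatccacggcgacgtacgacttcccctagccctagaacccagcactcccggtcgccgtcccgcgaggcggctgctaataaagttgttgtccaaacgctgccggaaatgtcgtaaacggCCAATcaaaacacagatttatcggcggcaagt
Prpf38b: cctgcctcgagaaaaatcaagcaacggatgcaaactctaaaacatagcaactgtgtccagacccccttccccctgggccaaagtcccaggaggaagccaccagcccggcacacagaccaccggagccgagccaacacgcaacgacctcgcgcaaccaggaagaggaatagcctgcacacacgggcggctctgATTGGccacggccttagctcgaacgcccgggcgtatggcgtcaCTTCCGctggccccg
Srsf6: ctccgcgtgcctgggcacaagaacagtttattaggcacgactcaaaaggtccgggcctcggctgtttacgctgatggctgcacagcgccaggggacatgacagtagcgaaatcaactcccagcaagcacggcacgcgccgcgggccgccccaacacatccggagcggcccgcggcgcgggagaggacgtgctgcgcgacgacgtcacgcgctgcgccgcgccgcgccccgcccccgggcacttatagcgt
Srsf5: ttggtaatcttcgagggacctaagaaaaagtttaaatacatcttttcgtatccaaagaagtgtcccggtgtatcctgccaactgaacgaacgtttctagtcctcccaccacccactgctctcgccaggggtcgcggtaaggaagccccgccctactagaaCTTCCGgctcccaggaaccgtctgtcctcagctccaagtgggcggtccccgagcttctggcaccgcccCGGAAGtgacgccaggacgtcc

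These 4 windows do not share a marked motif. A CCAAT box stood in the Prpf31 and Prpf38b windows, an ETS core in those of Prpf38b and Srsf5, and neither in that of Srsf6. Over the 8 members that fell, a CCAAT box was found in 5, against 18 of the 39 matched members that did not pass, 41.3% of the 5645 tested genes in the promoter table and 37.5% of all 27025 genes in it. For the ETS core the counts were 4 of 8 and 23 of 39, against 33.4% of tested genes and 15.3% of all genes in the table. A GC box (GGGCGG) was found in 6 of 8 and 26 of 39, against 66.3% and 35.4%. An E-box was found in 0 of 8 and 4 of 39, against 10.8% and 6.86%. The pattern TTCNNNGAA, known as a STAT site, was found in 0 of 8 and 3 of 39, against 7.16% and 8.13%. Of the 54 genes, 49 matched the promoter table and 11 of these had several promoters; a gene counted as holding a motif where any of its promoters did.

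A small set of splicing genes was lower with imatinib in the fusion lines, and no member rose past the threshold. Prpf31, Prpf38b, Srsf6, Srsf5, Sf3b3, Srsf2, Prpf38a and Hnrnpu fell, with log2 changes between -0.86 and -0.36, in a limma fit in which both fusion lines served as repeats. The other 44 of the 52 tested members did not pass an adjusted p of 0.05. The 8 that fell make up 15.4% of the members tested, beside 12.4% of all 6808 genes tested, and the 0 that rose stand beside 13.5% of all genes. The share that fell is thus near that of all genes. The median log2 change was -0.01 over the members and 0.04 over all genes, and 27 of 52 members lay below 0, against 45.6% of all genes. At an unadjusted p under 0.05, limma gave 4 members higher and 15 lower, which is 36.5% of the members against 42.7% of all genes, with 1603 genes higher and 1303 lower. Since the arrays hold RNA of whole cultures, fewer cells of a type and less RNA per cell cannot be told apart.

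**Figure D1:**
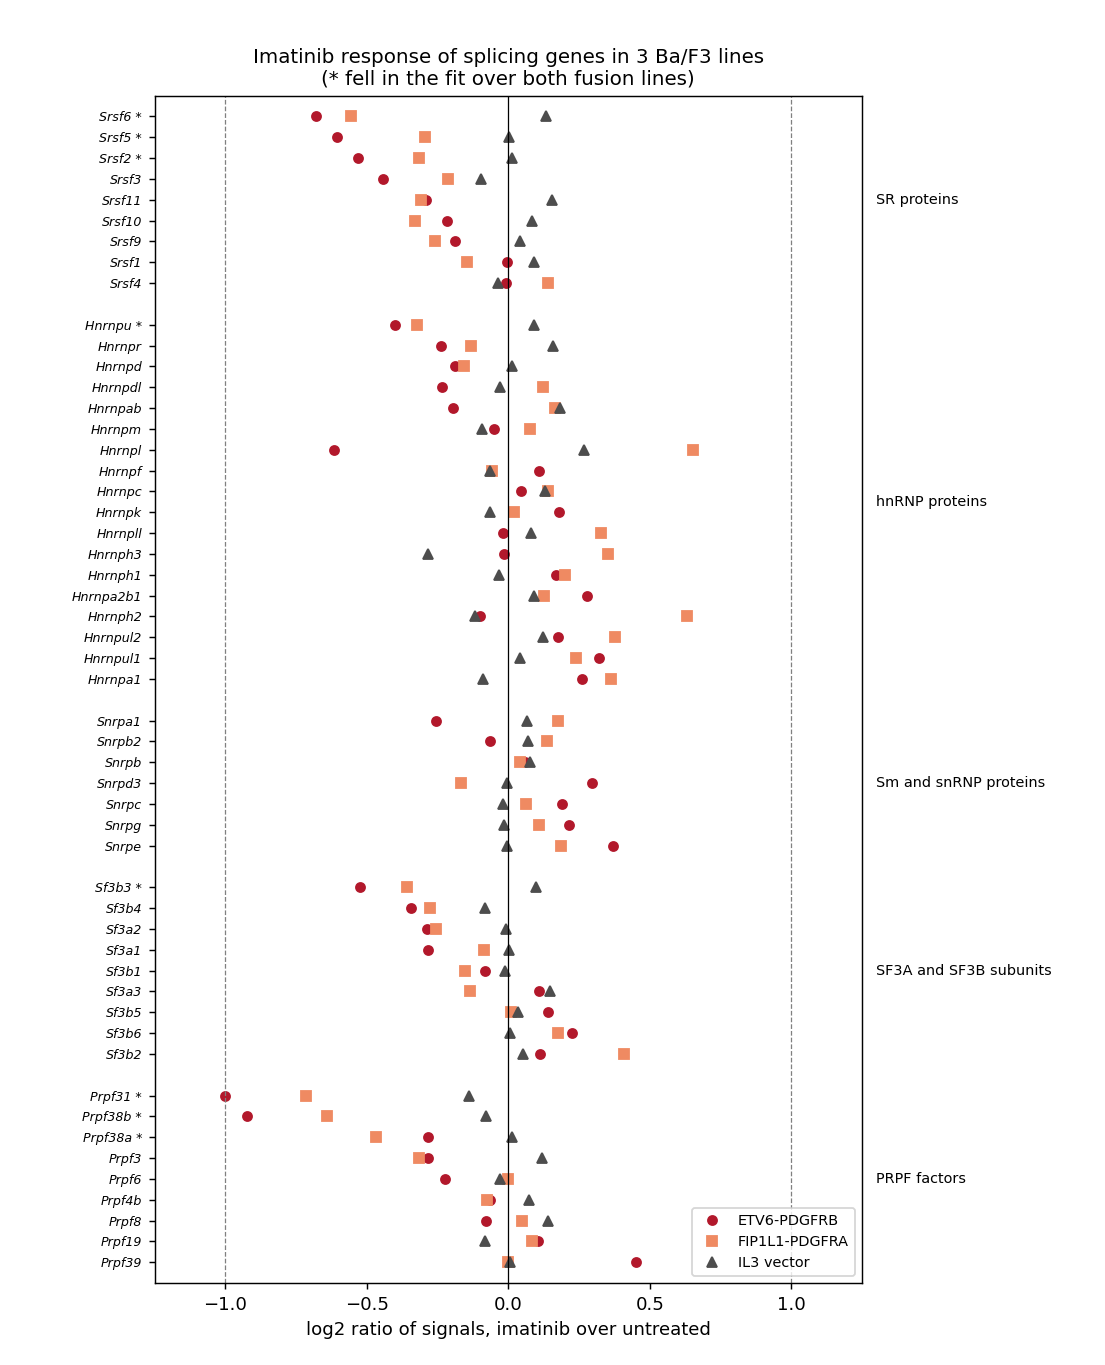
Log2 ratio of signals, imatinib over untreated (horizontal axis), of the 52 tested members in ETV6-PDGFRB cells (circles), FIP1L1-PDGFRA cells (squares) and IL3 vector cells (triangles), 1 array pair per point, grouped by role. Asterisks mark the 8 members that fell in the limma fit, and dashed lines mark 2-fold. The IL3 points lie between -0.28 and 0.27, while Prpf31 reaches the lower 2-fold line in ETV6-PDGFRB cells.

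There were no repeat cultures. The limma p-values of the imatinib fit reflect how far the responses of both fusion lines differ and how far the IL3 arrays differ from each other. Differences in level between lines do not enter them. Leaving out the ETV6-PDGFRB or the FIP1L1-PDGFRA line left 1 fusion array per treatment. The residual spread in such a fit came only from the difference between the IL3 arrays. It holds no measure of how far fusion responses vary, so its p-values and counts are not given. The calls thus rest on both fusion lines together and could not be checked within either line. Scaling the arrays to the spiked hybridization controls in place of the deposited scaling moved the median log2 change of all genes to -0.17, and 20 members then fell with 0 rising. Under that scaling 395 genes rose and 1880 fell in all, against 916 and 841 with the deposited scaling. Only Prpf31, Prpf38b and Srsf6 remained among the fallen with a floor at the 40th percentile, with a pseudocount of 16 in place of the floor, or with the 4 fusion arrays alone, settings in which 7.63%, 3.79% and 6.92% of all genes fell.

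Among the SR proteins, Srsf6, Srsf5 and Srsf2 fell and 8 of the 9 had a log2 change below 0. Srsf6, which binds exon enhancers and takes part in splice site choice, had signals of 574 and 673 with imatinib in ETV6-PDGFRB and FIP1L1-PDGFRA cells, against 920.0 and 990.1 untreated. In IL3 vector cells it had 1024 with imatinib and 934 untreated. Both treated fusion arrays lay below the other 4 arrays. The log2 change was -0.62 ± 0.10 (SE), with an adjusted p of 0.0145 by limma.

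Srsf5, an SR protein that shuttles between nucleus and cytoplasm, had signals of 706 and 799 with imatinib in ETV6-PDGFRB and FIP1L1-PDGFRA cells, against 1073 and 981 untreated. The IL3 vector arrays were level, at 1078 with imatinib and 1077 untreated. Its fitted log2 change was -0.45 ± 0.11 (SE, limma adjusted p = 0.0381). Srsf2, also known as SC35 and as a gene mutated in human myeloid neoplasms, had 1050.2 and 1308 with imatinib in the same lines, against 1519 and 1626 untreated. In IL3 vector cells Srsf2 had 1806 with imatinib and 1789 untreated, above all 4 fusion arrays. Its log2 change was -0.42 ± 0.10 (SE, limma adjusted p = 0.0338).

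The remaining SR proteins did not pass. Srsf3, an SR protein that also takes part in mRNA export, had signals of 912 and 1115 with imatinib in ETV6-PDGFRB and FIP1L1-PDGFRA cells, against 1239.9 and 1291 untreated, with 1361 and 1456 in the treated and untreated IL3 vector cells. Its groups did not overlap within the fusion lines, and its log2 change was -0.33 ± 0.10 (SE, limma adjusted p = 0.0727). Srsf11, Srsf10 and Srsf9 had log2 changes of -0.30, -0.27 and -0.22. Srsf1, the founding member of the family, had 1190.3 and 1259.8 with imatinib, against 1194 and 1392 untreated, and 1533 and 1439 in the treated and untreated IL3 vector cells. That is a log2 change of -0.07 ± 0.09 (SE, limma adjusted p = 0.581). The other 5 Srsf1 probe sets above the floor were lower, with mean log2 ratios in the fusion lines between -0.35 and -0.11. Srsf4 stood at 0.07, and Srsf7 was not analysed here. The group median was -0.30, which was -0.34 relative to all genes, and -0.33 relative to all genes with quantile normalization. Under hybridization control scaling it was -0.35 relative to all genes. That scaling multiplies all signals of an array by a common factor, so a value relative to all genes is bound to stay close and is no check.

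**Figure D2:**
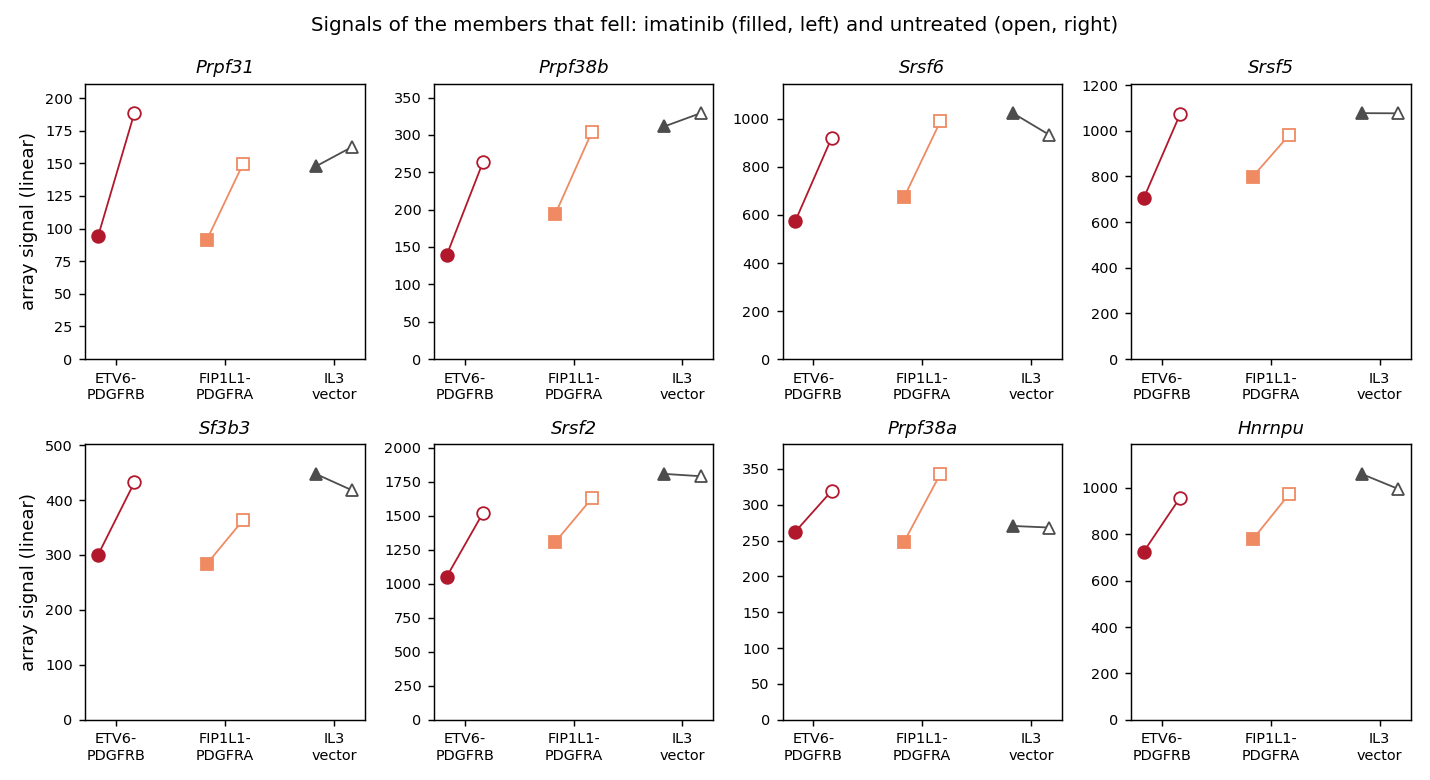
Array signals (linear scale from 0) of the 8 members that fell, with imatinib (filled, left) and untreated (open, right), for each line, 1 array per point. In both fusion lines the filled point lies below the open one for all 8 genes, as with Srsf6 at 574 against 920.0 in ETV6-PDGFRB cells, while the IL3 pairs differ less.

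PRPF factors held both of the lowest changes. Prpf31, a tri-snRNP protein that binds U4 and is mutated in a human form of retinitis pigmentosa, had signals of 94.0 and 91.4 with imatinib in ETV6-PDGFRB and FIP1L1-PDGFRA cells, against 189 and 149.9 untreated. In IL3 vector cells Prpf31 had 148 with imatinib and 163 untreated. The treated fusion arrays stood apart from the other 4. Its log2 change was -0.86 ± 0.11 (SE, limma adjusted p = 0.0100). It was the 1 member past 2-fold in ETV6-PDGFRB cells, just over that limit, beside 4.47% of all genes in that pair. No member passed 2-fold in FIP1L1-PDGFRA cells, where 5.16% of all genes did, or in IL3 vector cells, where 0.135% did.

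Prpf38b, related to the B complex factor Prpf38a, had 139 and 195 with imatinib in ETV6-PDGFRB and FIP1L1-PDGFRA cells, against 263 and 304 untreated. The IL3 vector arrays had 311 with imatinib and 329 untreated, above all fusion arrays. Its fitted log2 change was -0.78 ± 0.11 (SE, limma adjusted p = 0.0107). Prpf38a itself had 262 and 248 with imatinib, against 319 and 343 untreated, and 270.4 and 268 in the treated and untreated IL3 vector cells. Its treated fusion arrays came close to the IL3 level, and the untreated ones lay above it. Its fitted log2 change was -0.37 ± 0.09 (SE, limma adjusted p = 0.0420), and with quantile normalization it did not pass.

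The other PRPF factors did not pass. Prpf3, a tri-snRNP partner of Prpf4, stood at a log2 change of -0.30 ± 0.09 (SE, limma adjusted p = 0.0688). Prpf8, the scaffold at the heart of the spliceosome, had 546 and 537 with imatinib in ETV6-PDGFRB and FIP1L1-PDGFRA cells, against 576 and 519 untreated, and 668 and 605 in the treated and untreated IL3 vector cells. The ratios of the fusion lines had opposite signs, and the fitted log2 change was -0.02 ± 0.10 (SE, limma adjusted p = 0.920). Prpf19, a ubiquitin ligase of the activated spliceosome, had a log2 change of 0.10 ± 0.09 (SE, limma adjusted p = 0.451). Prpf40b was below the floor on every array and was not tested.

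Of the SF3A and SF3B subunits only Sf3b3 fell, and it did not pass with the lower floor, the pseudocount or the fusion arrays alone. Sf3b3, a large scaffold subunit of SF3B, had signals of 300.2 and 284 with imatinib in ETV6-PDGFRB and FIP1L1-PDGFRA cells, against 432 and 364 untreated. In IL3 vector cells it had 448 with imatinib and 418 untreated. Both treated fusion arrays were the lowest of the 6. The log2 change was -0.44 ± 0.10 (SE, limma adjusted p = 0.0305).

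Sf3b4 and Sf3a2, 2 further U2 subunits, had log2 changes of -0.31 and -0.27 with adjusted p-values of 0.0588 and 0.0704 by limma. Sf3b1, the subunit that clamps the branch site and is mutated in human myelodysplastic syndromes, had 618 and 555 with imatinib, against 655 and 617 untreated, and 598 and 603 in the treated and untreated IL3 vector cells. These 6 signals of the brightest probe set lay close together, with a log2 change of -0.12 ± 0.09 (SE, limma adjusted p = 0.338). Of 2 other Sf3b1 probe sets, 1 had a mean log2 ratio of -0.06 in the fusion lines. The other stood at -0.77, with 0.50 in IL3 vector cells, and its signals of 23.7 to 42.9 were not far above the floor. Sf3a1, which contacts U1 and U2, stood at -0.19 ± 0.09 (SE, limma adjusted p = 0.197). Sf3b2 and Sf3b6, a branch site contact, stood at 0.26 and 0.20. Under hybridization control scaling 5 of the 9 subunits fell, Sf3a1 and Sf3b1 among them, against 27.7% of all genes.

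The hnRNP proteins held 1 gene that fell and 13 of 18 with a log2 change above 0. Hnrnpu, a large nuclear protein that binds both chromatin and RNA, had 726 and 778 with imatinib in ETV6-PDGFRB and FIP1L1-PDGFRA cells, against 958 and 972 untreated, and 1061 and 997 in the treated and untreated IL3 vector cells. Its log2 change was -0.36 ± 0.09 (SE, limma adjusted p = 0.0420). Averaging all its probe sets ended the call, at a log2 change of -0.13 and an adjusted p of 0.306 by limma.

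Hnrnpa1, a repressor of exon inclusion, had 708 and 718 with imatinib in ETV6-PDGFRB and FIP1L1-PDGFRA cells, against 591 and 558 untreated, and 601 and 639 in the treated and untreated IL3 vector cells. Both treated fusion arrays were the highest of the 6. The log2 change was 0.31 ± 0.09 (SE, limma adjusted p = 0.0613), and it passed with the floor at the 60th percentile, at 0.0406. The mouse genome holds near-identical copies of Hnrnpa1, so its signal is uncertain as to which copy it reads.

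Hnrnpa2b1, which binds the same kind of sites as Hnrnpa1, had 1413 and 1254 with imatinib, against 1166 and 1149 untreated, and 1166 and 1095 in the treated and untreated IL3 vector cells. Its log2 change was 0.20 ± 0.09 (SE, limma adjusted p = 0.169). Hnrnpk, which binds C-rich RNA, stood at 0.10 ± 0.09 (SE, limma adjusted p = 0.457). Hnrnpul1 and Hnrnpul2, relatives of Hnrnpu, stood at 0.28 each. The median of the hnRNP group was 0.10 with the deposited scaling, -0.13 under hybridization control scaling and 0.04 with quantile normalization. Relative to all genes these were 0.05, 0.04 and -0.004, so the direction of this group depends on the scaling.

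Hnrnpl, a regulator of exons next to CA repeats, was the 1 member whose responses in the fusion lines differed by more than 1 on the log2 scale, beside 1.42% of all genes. It had 86.2 and 127 with imatinib in ETV6-PDGFRB and FIP1L1-PDGFRA cells, against 132 and 81.0 untreated, and 135 and 113 in the treated and untreated IL3 vector cells. The log2 ratio was -0.62 in ETV6-PDGFRB cells, 0.65 in FIP1L1-PDGFRA cells and 0.27 in IL3 vector cells, with 1 array in each group and no test of the difference.

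Sm and other snRNP proteins did not pass in either direction, and 6 of the 7 tested had a log2 change above 0. Snrpe, an Sm protein, had 2480.0 and 2366 with imatinib in ETV6-PDGFRB and FIP1L1-PDGFRA cells, against 1918 and 2082 untreated, and 2053 and 2059.8 in the treated and untreated IL3 vector cells. That is a log2 change of 0.28 ± 0.09 (SE, limma adjusted p = 0.0849). Snrpb, the Sm protein with a neuronal relative in Snrpn, had 1123 and 1196 with imatinib, against 1077 and 1163 untreated, with 1241 and 1178 in the treated and untreated IL3 vector cells. Its spread over all 6 arrays was small, and its log2 change was 0.05 ± 0.09 (SE, limma adjusted p = 0.692). Snrpn was below the floor on every array. The group median was 0.06 with the deposited scaling and -0.16 under hybridization control scaling. Relative to all genes these were 0.02 and 0.01, which are bound to lie close together, as said for the SR proteins.

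**Figure D3:**
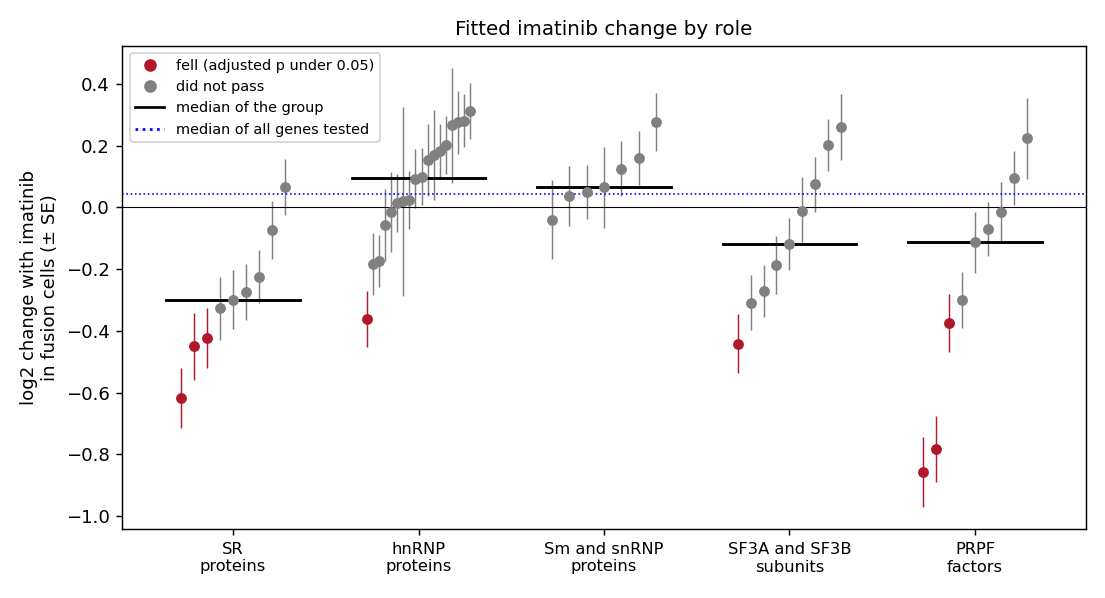
Fitted log2 change with imatinib in fusion cells (vertical axis, points with SE from limma) of the 52 tested members by role, with the median of each group (black line) and of all genes tested (dotted line, 0.04). Red points are the 8 that fell. The SR protein median lies at -0.30 and those of the hnRNP and Sm groups at 0.10 and 0.06.

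Counting arrays instead of fitted changes, both treated fusion arrays lay below both untreated ones for 16 of 52 members, beside 25.6% of all genes, and above them for 12, beside 30.7%. Of the tested genes, the 16 comprised 6 of 9 SR proteins and 4 of 9 PRPF factors. They also held 4 of 9 SF3A and SF3B subunits and 2 of 18 hnRNP proteins. The 12 comprised 7 of 18 hnRNP proteins, 3 of 7 Sm or snRNP proteins and 2 of 9 SF3A and SF3B subunits. No SR protein or PRPF factor was among them.

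In IL3 vector cells the members' log2 ratios ran between -0.28 and 0.27, with a median of 0.01 and an SD over members of 0.10. The member medians were -0.07 in ETV6-PDGFRB cells and 0.003 in FIP1L1-PDGFRA cells, beside 0.03 and 0.05 for all genes. Whether the fusion response differed from that of IL3 vector cells was fitted as an interaction in limma. It gave 0 members, beside 0.0% of all genes. The lowest adjusted p of a member was 0.212, and 4 members were below and 0 above at an unadjusted p under 0.05, which is 7.69% of the members against 17.3% of all genes (615 below and 564 above). A difference in imatinib response between the fusion lines and the IL3 line is therefore not shown for any member.

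No member differed past a threshold between untreated fusion lines and untreated IL3 vector cells, in a fit with 1 vector array and 1 residual degree of freedom that called no gene at all and so does not show that the levels were alike. Limma called 0 members, beside 0.0% of all genes, with 0.964 as the lowest adjusted p and 0 members at an unadjusted p under 0.05, against 4.48% of all genes. No member passed 2-fold in untreated ETV6-PDGFRB or FIP1L1-PDGFRA cells against IL3 vector cells, beside 2.97% and 2.14% of all genes. The largest differences with the same sign in both lines were those of Prpf39, a partner of U1 in splice site recognition, at a log2 ratio of -0.69 in the ETV6-PDGFRB line and -0.20 in the FIP1L1-PDGFRA line. On the higher side Prpf38a led with 0.25 and 0.36. Prpf4b, a kinase that acts on the spliceosome, was at -0.50 and -0.11. Then came Prpf38b, Prpf19 and Srsf3 on the lower side and Sf3a3, Hnrnpul2, Hnrnpa2b1 and Snrpg on the higher side. Among untreated cells, all 9 SR proteins lay below 0 in ETV6-PDGFRB and 5 of 9 in FIP1L1-PDGFRA cells against IL3 vector cells. Their medians were -0.07 and -0.05, beside 0.02 and -0.03 for all genes. Set against IL3 vector cells that were also treated, all 9 lay below 0 in treated ETV6-PDGFRB cells and 7 of 9 in treated FIP1L1-PDGFRA cells. These medians were -0.46 and -0.32, beside 0.04 and 0.02 for all genes. Of all genes, 3194 of 6790 and 3745 of 6719 lay below 0 in the untreated comparisons, and 3164 of 6846 and 3225 of 6758 in the treated ones. The SR share in untreated FIP1L1-PDGFRA cells was thus near that of all genes. Low values were not particular to SR proteins. Of the PRPF factors, 8 of 9 lay below 0 in each treated comparison. Of the hnRNP proteins, 16 of 18 did in untreated FIP1L1-PDGFRA cells. These comparisons share the IL3 arrays.

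Further spliceosome genes were read from lists outside the prefixes. Of 55 other spliceosome components tested, 4 fell and 0 rose, that is 7.27% and 0%, against 12.4% and 13.5% of all genes. Those that fell were led by Luc7l, Snrnp70 and Usp39. Luc7l, a relative of a yeast U1 protein, had 31.7 and 39.5 with imatinib in ETV6-PDGFRB and FIP1L1-PDGFRA cells, against 62.8 and 74.1 untreated, and 76.3 and 72.7 in the treated and untreated IL3 vector cells. Its treated fusion signals were the lowest of the 6, at a log2 change of -0.95 ± 0.09 (SE, limma adjusted p = 0.00554). Snrnp70, the U1 protein that binds the first stem of U1 RNA, changed by -0.67 ± 0.15 and Usp39, a tri-snRNP protein, by -0.48 ± 0.09 (SE, limma adjusted p-values 0.0315 and 0.0191). Under hybridization control scaling 19 of the 55 fell and 0 rose, against 27.7% and 5.82% of all genes. The share that fell was thus under that of all genes with the deposited scaling only, and above it here. With quantile normalization 4 fell and 0 rose.

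Of 16 genes of snRNP assembly and cap binding, 3 fell, or 18.8%, and 0 rose, against 12.4% and 13.5% of all genes. A log2 change below 0 was found for 14 of the 16, against 45.6% of all genes, with a median of -0.15. All 3 belong to the methylation and assembly of Sm proteins. Wdr77, the partner of the methyltransferase Prmt5, had 354 and 399 with imatinib in ETV6-PDGFRB and FIP1L1-PDGFRA cells, against 594 and 808 untreated, and 857 and 892 in the treated and untreated IL3 vector cells. Its log2 change was -0.88 ± 0.10 (SE, limma adjusted p = 0.00821). Prmt5, which methylates Sm proteins, had 149 and 169 with imatinib, against 232 and 288 untreated, and 296 and 328 in the treated and untreated IL3 vector cells. Both genes were lower in every treated fusion array than in the other 4. The log2 change of Prmt5 was -0.70 ± 0.10 and that of Strap, a protein of the SMN complex, was -0.46 ± 0.09 (SE, limma adjusted p-values 0.0115 and 0.0207). Under hybridization control scaling 8 of the 16 fell and 0 rose, against 27.7% and 5.82% of all genes. With quantile normalization 3 fell and 1 rose, against 12.6% and 14.6%.

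Other splicing regulators moved in both directions, with 4 that rose and 3 that fell of 43 tested, or 9.30% and 6.98%, both under the shares of 13.5% and 12.4% among all genes. Fubp1, a single-strand DNA and RNA binding protein known for the far upstream element of Myc, had 52.2 and 61.3 with imatinib in ETV6-PDGFRB and FIP1L1-PDGFRA cells, against 101 and 135 untreated, and 155 and 171 in the treated and untreated IL3 vector cells. The log2 change was -1.05 ± 0.10 (SE, limma adjusted p = 0.00642). Syncrip and Pcbp1, both of them RNA-binding proteins with hnRNP names of their own, changed by -0.56 and -0.42. Those that rose were led by Ptbp2, a neuronal relative of the polypyrimidine tract binding protein, by Clk1, a kinase that phosphorylates SR proteins, and by Khdrbs1, also known as SAM68. Clk1 had 359 and 426 with imatinib, against 259 and 316 untreated, and 259.6 and 253 in the treated and untreated IL3 vector cells. Its log2 change was 0.45 ± 0.09 (SE, limma adjusted p = 0.0219), with 0.53 for Ptbp2 and 0.34 for Khdrbs1. Under hybridization control scaling 0 of the 43 rose and 13 fell, against 5.82% and 27.7% of all genes. The 3 genes tested of the exon junction complex did not pass.

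Genes read by several probe sets gave a check on the choice of the brightest one. Of the 8 members that fell, 5 had further probe sets above the floor on all arrays, 10 in all, and 8 of these 10 had a mean log2 ratio in the fusion lines of the same direction. The other probe sets of Srsf2 lay between -0.68 and -0.34 and those of Srsf6 between -0.38 and -0.32, all below 0. For Prpf31 the other probe set stood at -0.18, and for Prpf38b at -0.43. Hnrnpu was the exception, with 1 of its 3 others below 0 and a range between -0.53 and 0.12. Among members that did not pass, 51 of 63 further probe sets had the direction of the brightest. The brightest probe set of Hnrnpab, an hnRNP of the A/B type, stood at -0.02, and its other 4 above the floor lay between -0.39 and -0.17. Different probe sets can read different transcript ends or isoforms, and which of these applies was not tested.

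**Figure D4:**
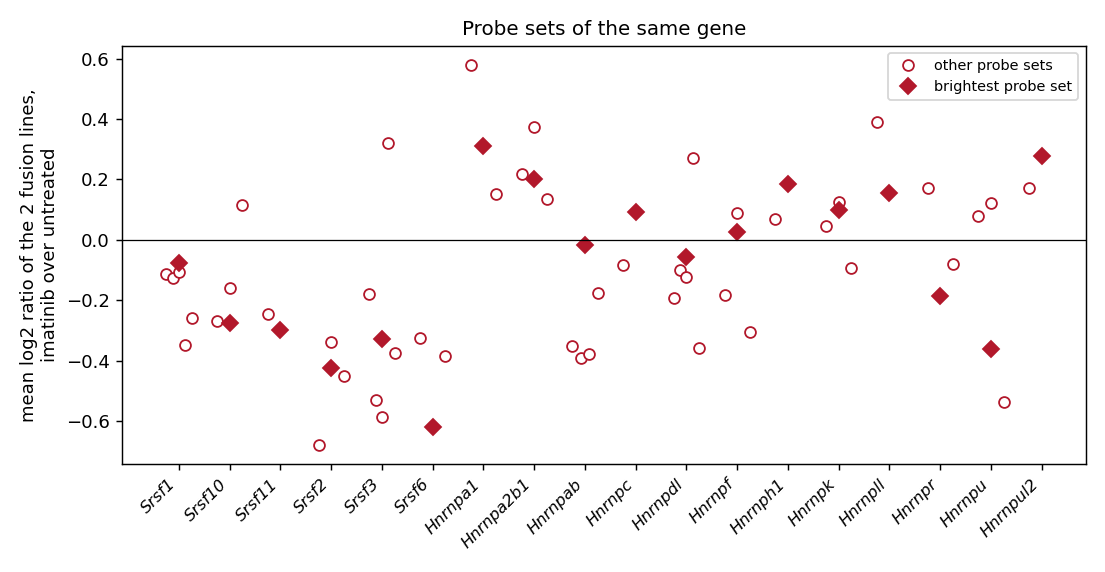
Mean log2 ratio of both fusion lines, imatinib over untreated (vertical axis), of each probe set above the floor on all arrays, for SR and hnRNP genes with more than 1 such probe set. Diamonds are the brightest probe sets used for the results and open circles the others. Those of Srsf2 and Srsf6 all lie below 0, and those of Hnrnpu lie on both sides.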

How the data were processed

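Expression was measured on 6 Affymetrix mouse arrays of 22690 probe sets. The deposited values are intensity signals on a linear scale, which the authors computed in GCOS 1.4.0 by MAS5 according to the submitters' processing notes. Neither detection calls nor background settings are given in the sources used here. Arrays had been scaled to a common level, with a mean of 100.0 on each array once 2% was trimmed from both ends. The ratio of 3' over 5' probe sets ranged over 1.12 to 1.22 (actin) and 0.754 to 0.802 (Gapdh).

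Gene symbols came from the platform annotation, where 20380 had 1 symbol, 691 several and 1555 none, besides 64 controls. All 54 member symbols matched the RefSeq gene table of GRCm38.p6. Signals below the floor of 20.1 were set to it, and log2 values were tested in limma 3.58.1 (R 4.3.3) with moderated variances. P-values were adjusted by Benjamini-Hochberg across 6808 genes, those that exceeded the floor on 2 or more arrays. The imatinib fit had the line as a block and 1 imatinib coefficient for fusion cells, and the IL3 arrays' difference entered the residual, leaving 2 residual and 3.10 prior degrees of freedom. The interaction fit had 1 residual degree of freedom. Untreated arrays were fitted alone, so that the single vector array was assumed to vary like the fusion lines. Within a line there was 1 array per treatment and no test, and precision is limited by the few arrays. Tables were made in Python 3.11.15 with pandas 2.3.3 and numpy 2.4.6. The imatinib fit was also run on simulated data with the scatter of the IL3 pair alone. Those data held no response particular to a line, so the run does not bear on calls with the fusion lines as repeats.

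The members and gene lists were chosen with earlier results of these data known. Named members were the 10 with the largest change in each direction among those called, every member past 2-fold, the 5 largest untreated differences in each direction with 1 sign in both lines, those whose fusion responses differed by more than 1, a fixed list (Srsf1, Srsf2, Srsf3, Srsf7, Hnrnpa1, Hnrnpa2b1, Hnrnpk, Snrpb, Snrpd1, Snrpa, Sf3b1, Sf3a1, Prpf8 and Prpf19) and the 3 called genes with the largest change in each direction of each further list. Other members named beside them were chosen after their values were seen. Alternatives were floors at the 40th and 60th percentiles, a pseudocount of 16 without a floor, scaling to 18 hybridization control probe sets, quantile normalization, the mean of all probe sets, other sets of arrays and leaving out a fusion line. Srsf7, Snrpd1 and Snrpa were not analysed here.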

Additional observations from a re-analysis of the deposited data

Results flagged for a closer look

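Hnrnpl had a lower signal with imatinib in ETV6-PDGFRB cells and a higher one in FIP1L1-PDGFRA cells. Its log2 ratio in ETV6-PDGFRB cells minus that in FIP1L1-PDGFRA cells was -1.27, and with 1 array per group the difference was not tested.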

How the results depend on the processing

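The count of 8 members that fell became 3 with a floor at the 40th percentile, 3 with the pseudocount, 3 with the 4 fusion arrays alone and 20 with hybridization control scaling, while the share of all genes that fell became 7.63%, 3.79%, 6.92% and 27.7%, against 12.4%. Fits without either fusion line took their residual spread from the IL3 arrays alone, so they could not check this count. The count was 11 with the floor at the 60th percentile, 8 with quantile normalization (7 of them the same genes) and 7 when a gene's probe sets were averaged. Of all genes, 15.2%, 12.6% and 11.4% fell in these settings. The count of members that rose, 0, became 2 with the floor at the 60th percentile (Hnrnpa1 and Hnrnpul1) and 1 when a gene's probe sets were averaged (Sf3b5). Of all genes, 17.4% and 11.4% rose in these settings. The Sf3b5 average took in a probe set below the floor on every array. That probe set had 5.80 and 3.90 with imatinib in ETV6-PDGFRB and FIP1L1-PDGFRA cells, against 0.384 and 0.238 untreated. The brightest Sf3b5 probe set had a log2 change of 0.07 (limma adjusted p = 0.564). Hybridization control scaling moved the member median to -0.26 in ETV6-PDGFRB cells, beside -0.15 for all genes, and to -0.27 in FIP1L1-PDGFRA cells, beside -0.22. The cause of these shifts was not tested. No named member reversed a call under these alternatives, and the untreated and interaction fits called 0 members under each alternative run for them. The line block of the imatinib fit already compares treated and untreated arrays within each line, and a further pairing by replicate number could not be made, since the labels give none and each group has 1 array.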
